A study of Homo sapiens with 2 samples.

Results

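The 10 member genes described here, all of the kinetochore and centromere, were followed on 2 microarrays of irradiated and untreated breast cancer cells. A probe was taken as a member when its gene name, current or former, was NUF2, NDC80, SPC24, SPC25, CENPA, CENPE, CENPF, ZWINT, MIS12 or DSN1 and neither array marked it as poor. This gave 11 probes of 24456 usable gene probes, 1 for each gene and 2 for CENPE, and 10 of 19349 genes named on the array. The scanner files carry 2 of the genes under former names, NDC80 as KNTC2 and DSN1 as C20orf172. The cells were MDA-MB-231, an established triple-negative human breast cancer line, grown on Matrigel as a 3D laminin-rich matrix culture. One array held RNA from untreated cells (0 Gy) and 1 array held RNA from cells given 2 Gy on each of 4 days (2 Gy x 4). How long after the last dose the RNA was taken is not given in these sources. Since each condition has a single array, nothing could be checked against replicates or tested, and each ratio, irradiated over untreated, compares these 2 arrays.

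The kinetochore is the protein assembly that ties a chromosome to spindle microtubules in mitosis. It is built on centromeric chromatin, which is marked by CENPA, a histone H3 variant. The MIS12 complex links this inner layer to the NDC80 complex, a rod of NDC80, NUF2, SPC24 and SPC25 that binds the microtubule. CENPE, a kinesin, and CENPF, a microtubule-binding protein, join the outer layer, and ZWINT helps to bring in checkpoint proteins. Several of these genes are transcribed mainly in late S phase, G2 and mitosis, so their mRNA is often read as a mark of cycling cells. In RNA from a whole culture, a larger share of cells that express a gene and more RNA per cell cannot be told apart.

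A probe was called detected when it was brighter on both arrays than 95% of the blank spots, a limit of 14.15 brightness units for 0 Gy and 16.0 for 2 Gy x 4. All 11 member probes were detected, as were 22069 of all gene probes. The line's mesenchymal markers were present, with 8 of 8 probes for AXL, CAV1, CD44, FN1 and VIM above the blank spots on both arrays. The hormone receptor genes ESR1 and PGR and the leukocyte gene PTPRC were not above the blank spots on both arrays. Probes of the endothelial genes PECAM1, VWF and CDH5 were above the blank spots on both arrays but dim, at 17.0 to 27.9 units. Each member is given on 2 scales. The main scale is the spot median after normexp background correction with an added offset of 50 and quantile normalization, which pulls the ratios of dim probes towards 1. The other is the deposited value table, whose values equal the spot median minus the blank level, scaled to a median of 25 on each array. Of the detected marker probes, none differed by 1.5-fold or more on the main scale, and in the value table the endothelial genes PECAM1 (0.388) and CDH5 (0.418) were lower by more than this.

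Of the 11 member probes, 10 were brighter on the irradiated array on both scales, and the DSN1 probe was dimmer. Among all detected probes, 55.3% had a ratio above 1 on the main scale and 55.2% in the value table. On the main scale 2 probes, NUF2 and NDC80, reached 1.5-fold upwards and 0 downwards, where 0.326% of all detected probes did so upwards and 1.16% downwards. By the deposited values, 6 of 11 reached 1.5-fold upwards, namely NUF2, NDC80, SPC25, CENPA, CENPF and CENPE probe 2, and 0 downwards, where 4.4% of all detected probes did so upwards and 7.26% downwards. The median log2 ratio of the member probes was 0.296 on the main scale and 0.643 in the value table, and the median of all detected probes was 0.0136 and 0.0418. Without NUF2 and NDC80 the median of the other 9 probes was 0.295 and 0.577. The middle 95% of all detected probes lay between -0.456 and 0.353 on the main scale and between -0.937 and 0.703 in the value table.

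**Figure D1:**
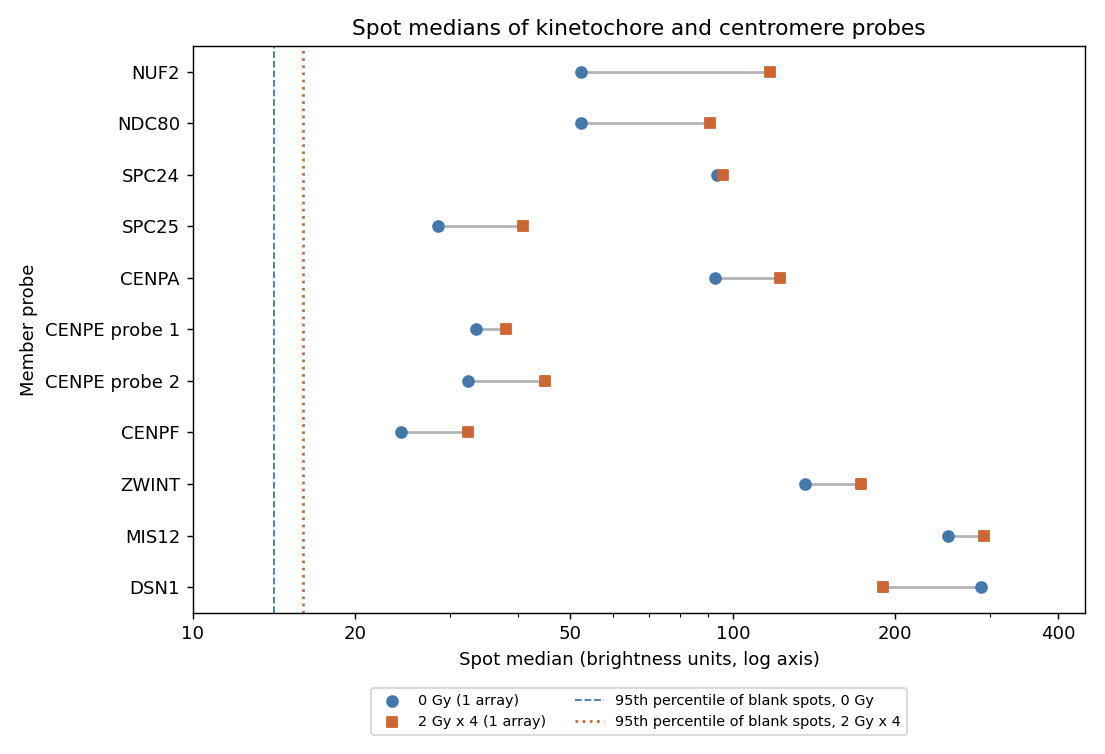
Spot medians (brightness units, log axis) of the 11 member probes on the untreated array (circles) and the irradiated array (squares), 1 array each, with the 95th percentile of blank spots of each array as vertical lines. The irradiated spot is to the right for 10 probes and to the left for DSN1, and all spots lie to the right of both lines.

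**Figure D2:**
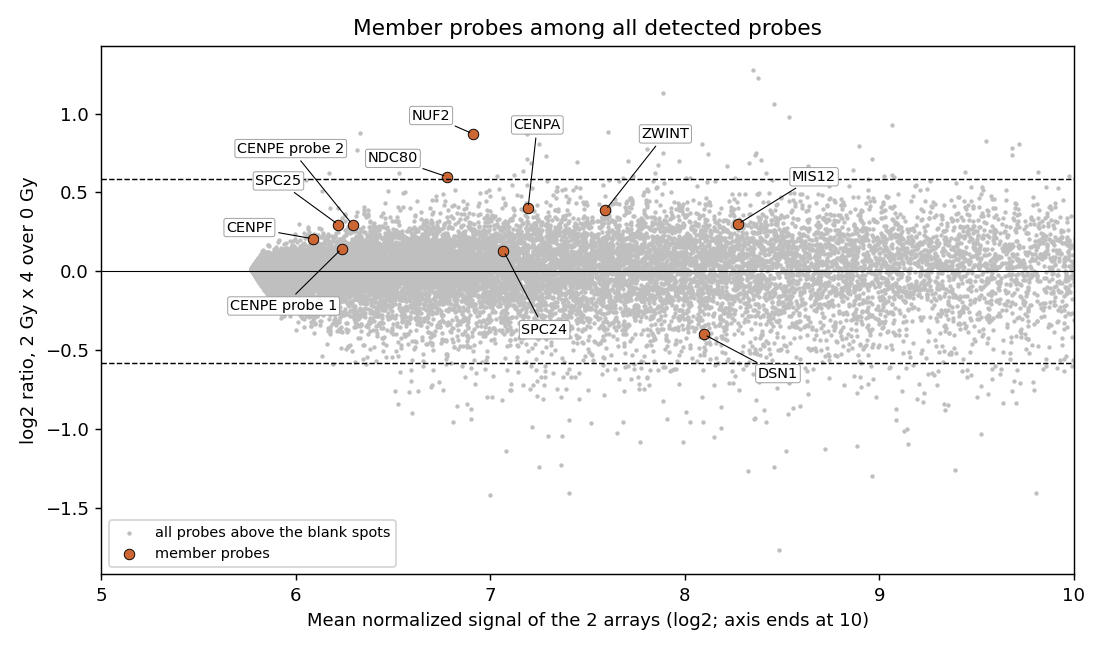
Log2 ratio of irradiated over untreated against mean normalized log2 signal for all detected probes (grey) and the 11 member probes (filled), main scale, with dashed lines at 1.5-fold; 1533 probes brighter than 10 are beyond the axis. NUF2 and NDC80 lie above the upper line and DSN1 lies below 0, inside the lower line.

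The upstream sequences of the members are shown because several such genes are known in human cells as targets of the MuvB complexes. Those complexes act through a short element, the cell cycle genes homology region (CHR), and B-MYB and NF-Y take part through other elements such as the CCAAT box. The RefSeq table (GRCh38.p14) held 12 start sites for the 10 genes, each with 250 bases before the start and 50 after it. Motifs were searched on both strands as the letters CCAAT (the box of that name), TTTGAA (CHR element), TTCGAA (CHR variant) and TTCCCGC (E2F site). A CHR element or its variant was found for 6 of 10 member genes, NUF2, NDC80, SPC25, CENPA, CENPF and ZWINT, and in 16.4% of 35116 windows of the same length. A CCAAT box was found for 6 of 10 member genes and in 34.6% of all windows, and an E2F site for 3 of 10 and in 6.55%. Both a CHR element and a CCAAT box were found for 4 of 10 and in 6.38%. A member gene was counted when any of its start sites matched, whereas the percentages count single windows. MIS12 and ZWINT each had 2 start sites. For 5 genes the window from 95 bases before the start to 25 bases after it is printed 5′ to 3′ on the gene's strand, with matches to any of the motifs in capitals. These are the 2 genes at 1.5-fold on the main scale, the NDC80 partner SPC25, the centromere mark CENPA and, as the gene that was lower, DSN1.
NUF2 (chr1:163321859-163321978, + strand): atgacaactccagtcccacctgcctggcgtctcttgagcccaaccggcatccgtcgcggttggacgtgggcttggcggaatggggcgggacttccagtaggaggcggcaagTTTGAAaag
NDC80 (chr18:2571462-2571581, + strand): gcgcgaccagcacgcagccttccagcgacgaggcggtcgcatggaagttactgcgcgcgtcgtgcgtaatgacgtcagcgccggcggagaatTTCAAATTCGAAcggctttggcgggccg
SPC25 (chr2:168890406-168890525, - strand): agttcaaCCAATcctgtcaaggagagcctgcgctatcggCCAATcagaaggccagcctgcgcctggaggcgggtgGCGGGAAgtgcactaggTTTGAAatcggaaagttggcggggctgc
CENPA (chr2:26785961-26786080, + strand): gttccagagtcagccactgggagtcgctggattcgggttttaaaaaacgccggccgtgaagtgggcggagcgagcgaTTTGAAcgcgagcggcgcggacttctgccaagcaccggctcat
DSN1 (chr20:36773739-36773858, - strand): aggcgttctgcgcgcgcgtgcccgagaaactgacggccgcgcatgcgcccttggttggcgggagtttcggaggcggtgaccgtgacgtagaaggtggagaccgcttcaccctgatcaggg

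Matches lay both near the start site and far from it. The CHR element of NUF2 began at base 17 after the start and that of CENPA at base -18, and SPC25 held one at base -3 and one at base -247. Among the distant matches, CENPA held CCAAT boxes at -205 and -130 and an E2F site at -231, outside the printed window. In NDC80 a reverse-strand CHR element began at base -3 and the variant followed it directly at base 4. The DSN1 and CENPE windows held none of the 4 motifs over their whole length, SPC24 held CCAAT boxes alone, and MIS12 held CCAAT boxes and an E2F site but no CHR element. The 6 probes of genes with a CHR match had ratios of 1.49 to 3.00 in the value table (median 1.86), and the 5 probes of genes without had 0.741 to 1.80 (median 1.33). The ranges overlap, and on the main scale they were 1.15 to 1.83 and 0.758 to 1.23. This split was looked at after the ratios were known and was not tested. A match is a run of letters in this window and does not show that a factor bound there.

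Within the NDC80 complex, all 4 subunit probes were brighter after irradiation, but by unequal amounts. NUF2, the partner of NDC80 in the microtubule-binding end, had a spot median of 52.3 units without irradiation and 117.1 after 2 Gy x 4. Its ratio was 1.83 on the main scale, where 8 of the 22069 detected probes had a higher ratio, and 3.00 in the value table (19.2 and 57.6), where 16 did. NDC80, which contacts the microtubule directly, had spot medians of 52.4 and 90.8. Its ratio was 1.52 on the main scale and 2.22 in the value table (19.3 and 42.9), with 61 and 74 probes higher.

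SPC24 and SPC25 form the other end of the rod, which docks on the kinetochore. SPC25 had spot medians of 28.5 and 40.9, a ratio of 1.23 on the main scale and 1.94 in the value table (7.79 and 15.1). The SPC25 probe stood near the blank spots, at 2.01 and 2.56 times their 95th percentile, which is where the added offset changes a ratio most. SPC24 had spot medians of 93.4 and 95.8 and was the closest to 1 in the complex, with ratios of 1.09 and 1.17. On the main scale 18.1% of all detected probes had a higher ratio than SPC24. The complex therefore ranged from 1.09 to 1.83 on the main scale and from 1.17 to 3.00 in the value table.

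The 4 probes of the centromere and outer-layer genes CENPA, CENPE and CENPF were all brighter after irradiation, with ratios of 1.10 to 1.32 on the main scale and 1.33 to 1.80 in the value table, between those of SPC24 and NDC80. CENPA had spot medians of 92.8 and 122.2 and ratios of 1.32 and 1.56. It was the highest of the members below 1.5-fold on the main scale, and 364 detected probes (1.65%) had a higher ratio. CENPF had spot medians of 24.3 and 32.3, or 1.72 and 2.02 times the 95th percentile of the blank spots. Its ratio was 1.15 on the main scale and 1.78 in the value table.

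CENPE, the kinesin that carries chromosomes towards the spindle equator, was read by 2 probes annotated to the same transcript. Probe 1 had spot medians of 33.5 and 38.0 and ratios of 1.10 and 1.33. Probe 2 had spot medians of 32.4 and 44.9 and ratios of 1.23 and 1.80, so that only this probe reached 1.5-fold in the value table. The log2 ratios of the 2 probes differed by 0.151 on the main scale and by 0.441 in the value table. Over 2359 genes with 2 detected probes, this difference had a median of 0.130 on the main scale and 0.299 in the value table, and by the deposited values 90% of genes differed by at most 0.848. For the 526 genes whose probes were both under 50 units without irradiation, the 90% limit was 1.07 in the value table and 0.187 on the main scale. These limits describe the difference between 2 probes of a gene on the same 2 arrays. They hold no variation between replicate arrays, so they set no error limit for the ratio of a single probe. The members this dim were SPC25, CENPF and both CENPE probes. Their log2 ratios on the main scale were 0.296 for SPC25, 0.206 for CENPF, 0.144 for CENPE probe 1 and 0.295 for CENPE probe 2. In the value table SPC25 had 0.954 and CENPF 0.833.

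ZWINT, the KNL1-binding factor that helps to recruit the RZZ complex, had spot medians of 135.8 and 172.8 and ratios of 1.31 on the main scale and 1.49 in the value table. MIS12 and DSN1, 2 subunits of the linker complex, went opposite ways. MIS12 had spot medians of 250.9 and 291.9 and ratios of 1.23 and 1.35. DSN1 had spot medians of 287.7 and 189.9, with ratios of 0.758 and 0.741. It was the lowest of the 11 ratios, with 3.29% of all detected probes lower on the main scale.

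Ratios on these arrays also followed position on the chip. In the value table the median log2 ratio of detected probes was 0.285 in column 1 and -0.637 in column 104, the last column. The DSN1 probe lay in column 104, where its own log2 ratio of -0.433 was above the column median, and NUF2 and MIS12 lay in columns 1 and 2, where the medians were 0.285 and 0.255. The other members lay between columns 35 and 76, where the column medians were between -0.0774 and 0.124. Taking off the local median of neighbouring probes gave, in the value table, 2.35 for NUF2, 2.08 for NDC80, 1.04 for MIS12 and 0.985 for DSN1. On the main scale it gave 1.66 for NUF2, 1.48 for NDC80, 1.10 for MIS12 and 0.847 for DSN1. NUF2 and NDC80 thus kept their order, NDC80 was below 1.5-fold on the main scale, and MIS12 and DSN1 came close to 1 in the value table.

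**Figure D3:**
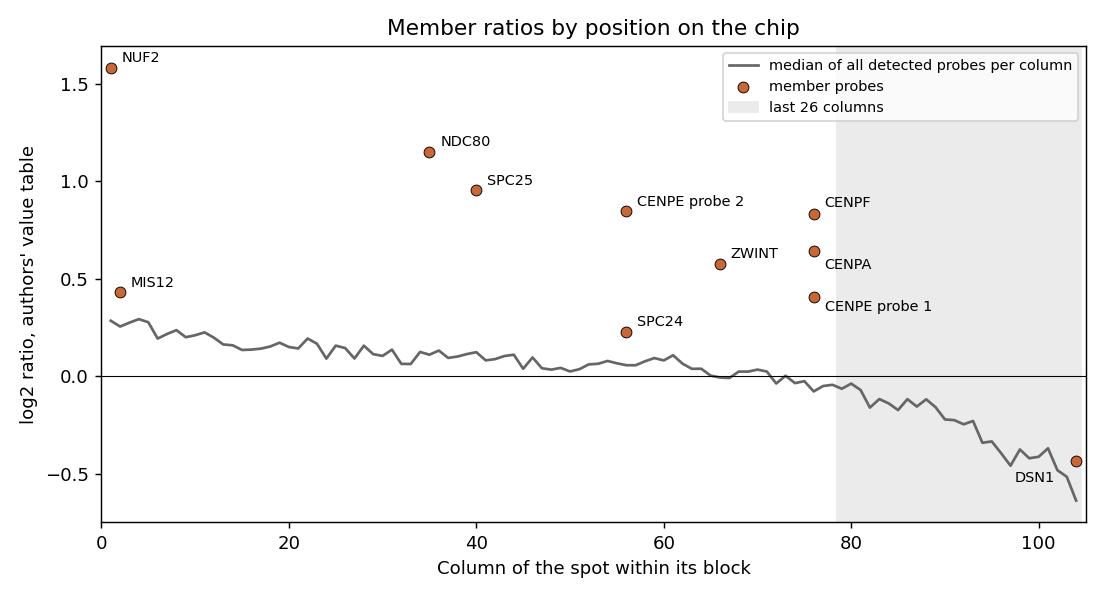
Log2 ratio in the deposited value table against the spot's column within its block, for the 11 member probes (points) and for the median of all detected probes in each column (line), with the last 26 columns shaded. The line stands at 0.285 in column 1 and -0.637 in column 104, the DSN1 point at column 104 lies above it and the NUF2 point at column 1 lies far above it.

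The local background intensity given for each spot differed between the arrays as well. The local background was higher on the irradiated array for 10 of 11 member probes. The median ratio of the local background was 1.86 for the members and 1.21 for all detected probes. At 5 of 11 member probes the local background was at least 2-fold higher, against 18.9% of all detected probes. For CENPA it was 12.2 units without irradiation and 72.2 after, for NUF2 17.2 and 68.4, and for NDC80 12.9 and 32.1. For DSN1 it was 155.6 and 128.2. Over all spots the local background followed the spot itself, with a Spearman correlation across spots of 0.943 for 0 Gy and 0.928 for 2 Gy x 4, and spots on 1 array are not independent. When it was subtracted first, NUF2 had a ratio of 1.33, NDC80 1.39 and CENPE probe 2 1.33, and CENPA (0.882), CENPE probe 1 (0.957) and MIS12 (0.927) turned below 1. With this step 7 of 11 probes were above 1, against 54.6% of all detected probes. At 1.5-fold there were 0 in either direction, where 4.51% of all detected probes reached it upwards and 5.11% downwards. The median log2 ratio of the members was then 0.0749. The part of the local background in the ratios was not tested.

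The other settings gave these counts of members at 1.5-fold upwards, with 0 downwards in each. There were 2 with median scaling, where 0.263% of all detected probes reached this upwards and 1.33% downwards, and 2 with 75th percentile scaling (0.29% and 1.25%). There were 6 with offset 0 (2.51% and 5.34%) and 4 without background correction (0.888% and 2.8%). With the position correction there was 1, NUF2 (0.204% and 0.507%), and 6 when it was applied to the deposited values (3.25% and 4.27%). Without a filter on dim probes there were 2 (0.294% and 1.05%), and 2 of 7 members among the probes brighter than the median (0.616% and 2.19%). NUF2 reached 1.5-fold in every setting named here and missed it only with the local background subtracted. SPC24, CENPE probe 1, ZWINT, MIS12 and DSN1 reached it in none. On the main scale 0 members reached 2-fold.

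**Figure D4:**
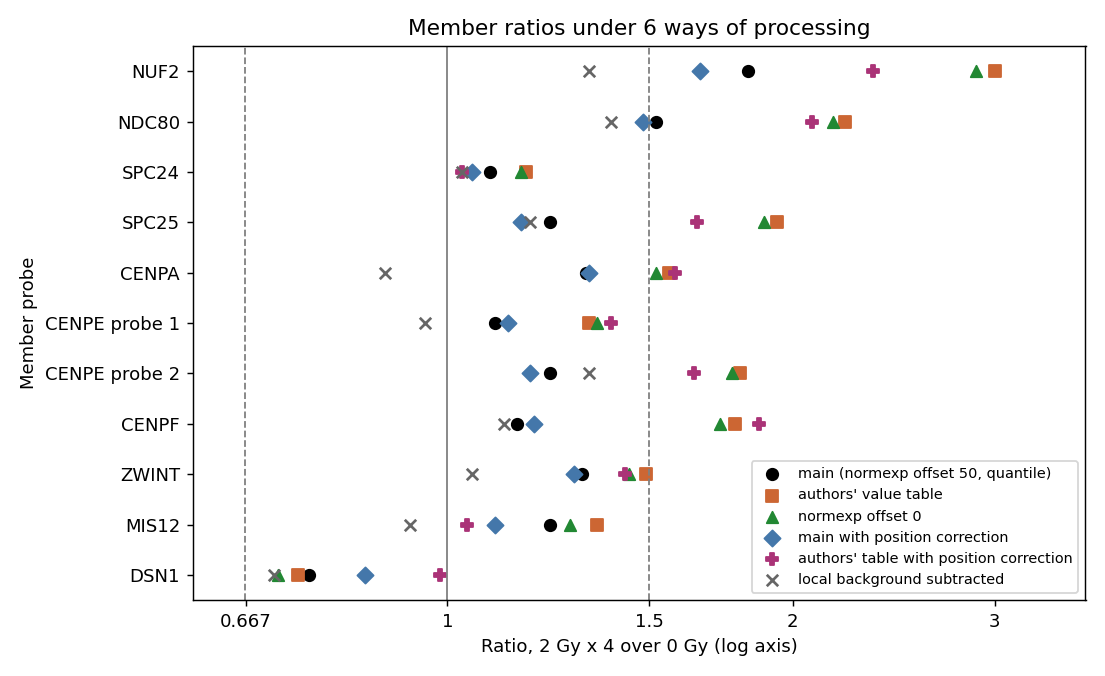
Ratio of irradiated over untreated (log axis) for each member probe under 6 ways of processing, with a solid line at 1 and dashed lines at 1.5-fold in either direction. NUF2 and NDC80 are the only members at 1.5-fold on the main scale, and subtraction of the local background (crosses) leaves no member at 1.5-fold.

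Further kinetochore and centromere genes were read in the same way from 4 lists, 64 detected probes in all. The share of all detected probes with a ratio above 1, to set beside the counts below, was 55.3% on the main scale. Of 17 detected probes of other outer kinetochore genes, 15 had a ratio above 1 on the main scale, 2 reached 1.5-fold upwards and 0 downwards, with a median log2 ratio of 0.140. The 2 were both probes of KIF2C, which encodes a microtubule-depolymerising kinesin of the centromere. One had spot medians of 78.4 and 139.1 and a ratio of 1.64, and the other 36.5 and 71.2 and a ratio of 1.54, and with the local background subtracted they were 1.05 and 1.13. KNTC1, the ROD subunit of the RZZ complex, had spot medians of 99.2 and 134.5 and a ratio of 1.36. KNSTRN, a spindle and kinetochore protein, had spot medians of 190.0 and 230.5 and a ratio of 1.27, and the brighter probe of ZWILCH, another RZZ subunit, 253.9 and 188.9 and a ratio of 0.843. This ZWILCH probe lay in column 96, and with the position correction its ratio was 0.987 on the main scale and 1.26 in the value table. The dimmer ZWILCH probe had spot medians of 23.1 and 17.1. Its ratios, without the position correction, were 0.903 on the main scale and 0.367 in the value table.

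In the inner kinetochore network, which holds CENPA chromatin, 13 of 20 detected probes had a ratio above 1, 1 reached 1.5-fold upwards and 0 downwards, and the median log2 ratio was 0.108. CENPN, which reads CENPA nucleosomes, was the probe at 1.5-fold, with spot medians of 152.2 and 241.5 and a ratio of 1.60, or 1.37 with the local background subtracted. CENPM had 53.4 and 79.5 and a ratio of 1.37, and CENPU had 129.3 and 170.9 and a ratio of 1.34. CENPK went the other way, with spot medians of 608.1 and 386.2 and a ratio of 0.717.

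Of 9 probes of CENPA deposition factors, 7 had a ratio above 1 and 0 reached 1.5-fold in either direction, with a median log2 ratio of 0.0953. OIP5, a subunit of the MIS18 complex, had spot medians of 54.6 and 84.1 and a ratio of 1.41. The 2 probes of RBBP7, a histone chaperone, had ratios of 1.39 and 1.07, and HJURP, the CENPA chaperone, had 58.6 and 70.0 and a ratio of 1.19. Of 18 probes of centromere cohesion genes, 11 had a ratio above 1 on the main scale, with a median log2 ratio of 0.0478. On that scale 0 reached 1.5-fold in either direction. SGO2, a protector of centromeric cohesin, had spot medians of 41.3 and 68.2 and a ratio of 1.41. PTTG1, the securin gene, had a ratio of 1.38, and ESPL1, which encodes separase, 0.761. These probes lay in columns 98, 103 and 86. With the position correction the ratios were 1.47 for SGO2, 1.56 for PTTG1 and 0.785 for ESPL1 on the main scale. In the value table with this correction they were 2.38, 2.02 and 0.706.

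The member median of 0.296 stood beside 0.308 for 12 probes of the spindle checkpoint, 0.578 for 4 probes of the chromosomal passenger complex and 0.114 for 25 probes of DNA replication licensing and fork genes. In the value table the same medians were 0.643, 0.786, 0.832 and 0.228. At least 1.5-fold higher on the main scale were 1 of 12 checkpoint probes (CDC20, 2.42), 2 of 4 passenger probes (CDCA8, 2.08, and AURKB, 1.54) and 0 of 25 replication probes. In the value table these counts were 7 of 12, 3 of 4 and 2 of 25, beside 6 of 11 members and 4.4% of all detected probes. There the counts were 4 of 17 for other outer kinetochore genes and 3 of 20 for the inner network. For CENPA deposition and centromere cohesion they were 1 of 9 and 4 of 18. The checkpoint genes MAD2L1 (1.48 and 1.15 for its 2 probes), BUB1 (1.43) and BUB1B (1.34) and the passenger gene BIRC5 (1.45) were within the range of the members, and INCENP had a ratio of 1.06. The replication genes with the largest ratios were PCNA (1.29), GINS4 (1.29) and CDC45 (1.21). With the local background subtracted the members and the checkpoint, passenger and replication lists kept their order. The medians were then 0.0749 for the members, 0.0863 for the checkpoint, 0.558 for the passenger complex and 0.0313 for replication. Those of the inner kinetochore network (0.245), CENPA deposition (0.24) and the other outer kinetochore genes (0.082) now stood above that of the members. With this step CDC20 had a ratio of 2.80 and CDCA8 2.74, and none of the members reached 1.5-fold. The MAD2L1 probe at 1.48 on the main scale then had 0.755, BUB1B 0.768, BUB1 1.08 and BIRC5 1.85. AURKB had 1.01, but its local background exceeded its spot on both arrays. The values were 159.8 against 154.0 for 0 Gy and 242.6 against 233.2 for 2 Gy x 4. Differences below 0 were set to 0 in this step, so it could not show a change for AURKB. None of the differences between these lists could be tested with 1 array per condition.

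**Figure D5:**
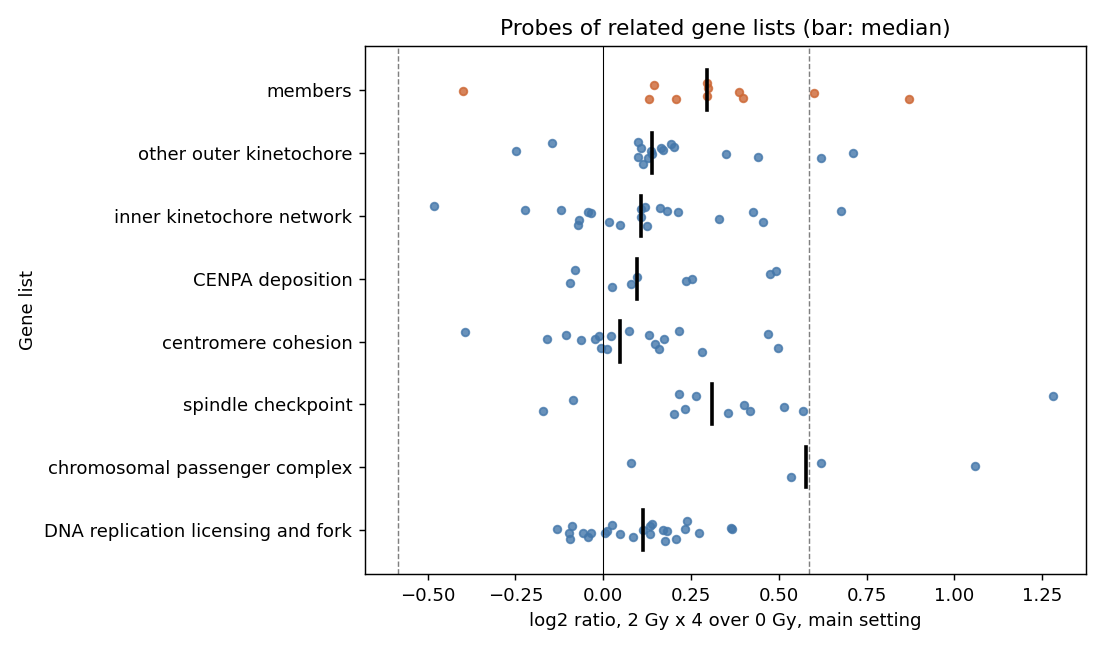
Log2 ratio of irradiated over untreated on the main scale for the detected probes of the members and of 7 related gene lists (points, 1 per probe, spread vertically for display), with a bar at each median and dashed lines at 1.5-fold. The member, spindle checkpoint and passenger complex medians are 0.296, 0.308 and 0.578, and the other 5 medians lie between 0.0478 and 0.140.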

How the data were processed

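For 0 Gy and 2 Gy x 4, RNA labelled with Cy5 was read on 1 Toray 3D-Gene human chip each, in 1 colour. The authors deposited scanner files with the linear spot intensity and local background intensity, unscaled, and a value table of processed intensity. Aligning table and scanner files, its values could be rebuilt by taking off the average blank spot (middle 90%) and scaling to a median of 25, within 0.482% for values above 10. Intensities were corrected with limma 3.58.1 (R 4.3.3; normexp, offset 50) over all spots and quantile-normalized over 24456 gene probes, without the 4 marked poor. Other steps used Python 3.11.15, numpy 2.4.6, pandas 2.3.3 and matplotlib 3.10.9. The platform annotation, updated through the RefSeq gene table, named 21671 probes, the scanner name 985, and 1800 stayed unnamed. Position correction used probes within 11 rows and 8 columns, with blocks taken as stacked in file order. All 10 members are described, and from each further list the probes at 1.5-fold and the 3 largest of the rest. Members, lists and alternatives were chosen with earlier results of these data known. The steps were tested on simulated data that held a constant local background on both arrays. Subtraction of a local background that differs between arrays was therefore not tested. Alternatives changed the scaling, offset, background, position, dim filter, value source and fold limit. The number of arrays limits the precision. One gene of the marker lists is not reported here.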

Additional observations from a re-analysis of the deposited data

How the results depend on the processing

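In all, 11 alternatives to the main setting were run. The count of member probes at least 1.5-fold higher, 2 of 11 in the main setting, was 2 with median scaling, scaling to the 75th percentile, no filter on dim probes and probes brighter than the median (7 members). It was 6 with offset 0, 6 in the deposited value table, 6 there with the position correction, 4 without background correction, 1 with the position correction, 0 with the local background subtracted and 0 at 2-fold. The count at least 1.5-fold lower was 0 in each. The median log2 ratio, 0.296 in the main setting and without the dim filter, was 0.319 with median scaling, 0.325 with 75th percentile scaling, 0.608 with offset 0, 0.493 without background correction, 0.0749 with the local background subtracted, 0.643 in the value table, 0.243 with the position correction, 0.66 for both together and 0.388 for brighter probes. Only local background subtraction turned members, namely MIS12 (0.927), CENPA (0.882) and CENPE probe 1 (0.957). Over all probes, 72 were at 1.5-fold upwards and 257 downwards, against 45 and 112 with the position correction, 554 and 1179 at offset 0 and 971 and 1602 by the deposited values. No paired analysis was possible because each group holds 1 array. Leaving out an array was not possible for the same reason. Of the members, SPC25, CENPE and CENPF were at most 2.81 times the 95th percentile of the blank spots on either array, which limits their ratios.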
